A study of Homo sapiens with 8 samples.

Results

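The miR-17-92 polycistron is a run of 6 miRNA hairpins on 1 transcript, MIR17HG, and the values below are those of its mature arms in H1 human embryonic stem cells with altered Dicer. The 9 arms examined were taken by name from the table of mature miRNAs: miR-17-5p, miR-17-3p, miR-18a-5p, miR-18a-3p, miR-19a-3p, miR-19b-3p, miR-20a-5p, miR-20a-3p and miR-92a-3p. All 9 were among the 594 miRNAs measured. The cells carried changes made with CRISPR-Cas9, and small RNAs of total RNA were sequenced in 8 libraries, 2 for each of 4 genotypes. The genotypes were Dicer-S1344L hemizygous, Dicer-S1344L homozygous, Dicer-null and wild type, all in the H1 line, an established pluripotent line of embryonic origin. S1344L is a substitution in Dicer that recurs in tumours. The labels call the RNA samples biologically independent; the other allele of the hemizygous cells, the lesion of the null cells and the number of clones behind a genotype are not stated there. The comparison asks what happens when 1 transcript carries some hairpins whose main product is the 5p arm and others whose main product is the 3p arm.

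A miRNA hairpin is released from its primary transcript by Drosha and is then cut by Dicer into a duplex of a 5p arm, from the 5′ side of the hairpin, and a 3p arm, from the 3′ side. Argonaute keeps one strand, the guide, and the other, the passenger, is usually lost; the RNase IIIb domain of Dicer makes the cut that frees the 5p arm and the RNase IIIa domain, in which S1344L lies, the cut that frees the 3p arm. The polycistron is induced by MYC, is highly expressed in pluripotent cells and is amplified in lymphomas, and its guides repress cell cycle and death genes such as CDKN1A and BCL2L11.

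The hairpins lie on the plus strand of chromosome 13 in GRCh38, in the order miR-17, miR-18a, miR-19a, miR-20a, miR-19b-1 and miR-92a-1, inside the non-coding gene MIR17HG at chr13:91347820-91354579. The first, MIR17, covers chr13:91350605-91350688, and the last, MIR92A1, covers chr13:91351314-91351391. In GENCODE v29 all 6 fall in an exon of the transcripts MIR17HG-202 and MIR17HG-203 and in an intron of MIR17HG-201. The miR-17 hairpin is printed because both of its arms are members; its 2 arms are in capitals and 14 bases part them. Sequences are from RefSeq (build GRCh38.p14), 5′ to 3′.
miR-17 hairpin: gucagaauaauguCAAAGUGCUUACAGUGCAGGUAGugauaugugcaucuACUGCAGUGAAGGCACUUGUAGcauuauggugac

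The mature sequences show which arms can read the same targets. Capitals mark the seed, bases 2 to 8, which sets most of a miRNA's target choice.
miR-17-5p: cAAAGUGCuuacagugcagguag
miR-20a-5p: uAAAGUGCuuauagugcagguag
miR-18a-5p: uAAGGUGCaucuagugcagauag
miR-17-3p: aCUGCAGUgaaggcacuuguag
miR-20a-3p: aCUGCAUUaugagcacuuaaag
miR-18a-3p: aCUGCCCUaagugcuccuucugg
miR-19a-3p: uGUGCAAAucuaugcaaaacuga
miR-19b-3p: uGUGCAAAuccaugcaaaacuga
miR-92a-3p: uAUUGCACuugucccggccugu

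miR-17-5p and miR-20a-5p share the seed AAAGUGC and differ at 2 of 23 positions, C1U and C12U, counted from the 5′ end with the base of miR-17-5p first. miR-19a-3p and miR-19b-3p share the seed GUGCAAA and differ only by U11C, with the base of miR-19a-3p first. The 3p arms of miR-17 and miR-20a have their first 6 bases in common, and that of miR-18a has the first 5 in common with both, but each of these 3 arms has a seed of its own. The mature sequences of miR-19b-3p and miR-92a-3p also arise from the hairpins MIR19B2 and MIR92A2 on chromosome X, so their reads cannot be assigned to chromosome 13 alone.

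Levels are RPM, reads scaled to 1000000 of the denominator that the authors used for each library. Hemizygous libraries had 1000101 and 1833057 miRNA reads, homozygous libraries 2289926 and 1814568, null libraries 165317 and 137655, and wild-type libraries 2680973 and 2725756. Relative to that denominator these reads were 0.729-fold and 2.42-fold for hemizygous, 2.43-fold and 2.18-fold for homozygous, 0.118-fold and 0.183-fold for null, and 2.09-fold and 2.33-fold for wild-type replicates 1 and 2. Hemizygous replicate 1 therefore stood apart: the median miRNA was 1.94 log2 units higher in hemizygous replicate 2, against 0.79 units between the null libraries, −0.23 between the homozygous and 0.23 between the wild-type libraries (replicate 2 minus 1). The 8 pluripotency miRNAs of the miR-302, miR-367 and miR-371 to miR-373 loci, all measured, made up 50.7% and 49.3% of the miRNA reads of hemizygous, 47.6% and 48.6% of homozygous, 52.4% and 45.7% of null and 39.8% and 38.1% of wild-type libraries (replicates 1 and 2). The 5 measured fibroblast markers held 0.192% and 0.364% of hemizygous, 0.380% and 0.339% of homozygous, 1.38% and 1.38% of null and 1.24% and 1.47% of wild-type libraries; 1 of the 5, miR-143-3p, was at 0 in both null libraries. The 4 neural markers held 1.66% and 1.19%, 1.22% and 1.12%, 0.596% and 0.572%, and 0.95% and 0.745% in the same order, so these 2 lists separated S1344L libraries from the others. The muscle, blood and endothelial markers held at most 0.251% of any library. The fibroblast and neural lists mix 5p and 3p arms, so their sums cannot tell cell content from a change in arms. The part of these marker differences in the results was not tested. In bulk RNA a change in the number of cells that express a miRNA and a change per cell cannot be told apart.

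The 9 arms held 15.7% and 13.7% of the miRNA reads of the hemizygous libraries, 14.7% and 14.9% of the homozygous, 10.6% and 10.5% of the null, and 12.7% and 13.1% of the wild type. The counting intervals are narrow, for example 15.6% to 15.8% (95% Wilson) in hemizygous replicate 1, and cover counting error only. The share was thus higher in all 4 S1344L libraries, and lower in both null libraries, than in either wild-type library. What differed far more was which arms made up that share.

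The 5p guides of miR-17, miR-18a and miR-20a fell in both S1344L genotypes. miR-17-5p, which represses cell cycle inhibitors, had 2332 and 9589.7 RPM in hemizygous cells, 9229.9 and 7285 in homozygous cells, 1495 and 2329 in null cells, and 46792 and 53687 in wild-type cells. All 6 libraries with altered Dicer lay below both wild-type libraries, and hemizygous replicate 1 lay next to null replicate 2. Its log2 fold change from wild type was −3.41 ± 0.81 (SE) in hemizygous cells (limma, Benjamini-Hochberg adjusted p = 0.000175) and −2.61 ± 0.81 in homozygous cells (adjusted p = 0.0063).

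miR-20a-5p, which has the seed of miR-17-5p, had 1939 and 7918 RPM in hemizygous cells, 7085 and 5941 in homozygous cells, 2347 and 3277 in null cells, and 46087 and 52747 in wild-type cells. Again the wild-type libraries stood above the other 6, and hemizygous replicate 1 lay below both null libraries. The fall was 12.6-fold in hemizygous cells (limma adjusted p = 6.45e-05) and 7.60-fold in homozygous cells (adjusted p = 0.00206).

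miR-18a-5p, a guide with the seed AAGGUGC, had 826 and 4086 RPM in hemizygous cells, 3534 and 2874 in homozygous cells, 557 and 1070.1 in null cells, and 31624 and 35638 in wild-type cells. Hemizygous replicate 1 lay between the null libraries, and no library with altered Dicer reached the wild-type level. The fall was larger than that of the other 8 arms in both S1344L genotypes, −4.19 ± 0.84 log2 units in hemizygous cells (limma adjusted p = 1.10e-05) and −3.40 ± 0.84 in homozygous cells (adjusted p = 0.000585). By mean RPM it was the 12th miRNA of wild-type cells, and it ranked 77th in hemizygous and 85th in homozygous cells. miR-17-5p ranked 38th, 44th and 8th in hemizygous, homozygous and wild-type cells, and miR-20a-5p 51st, 54th and 10th.

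**Figure D1:**
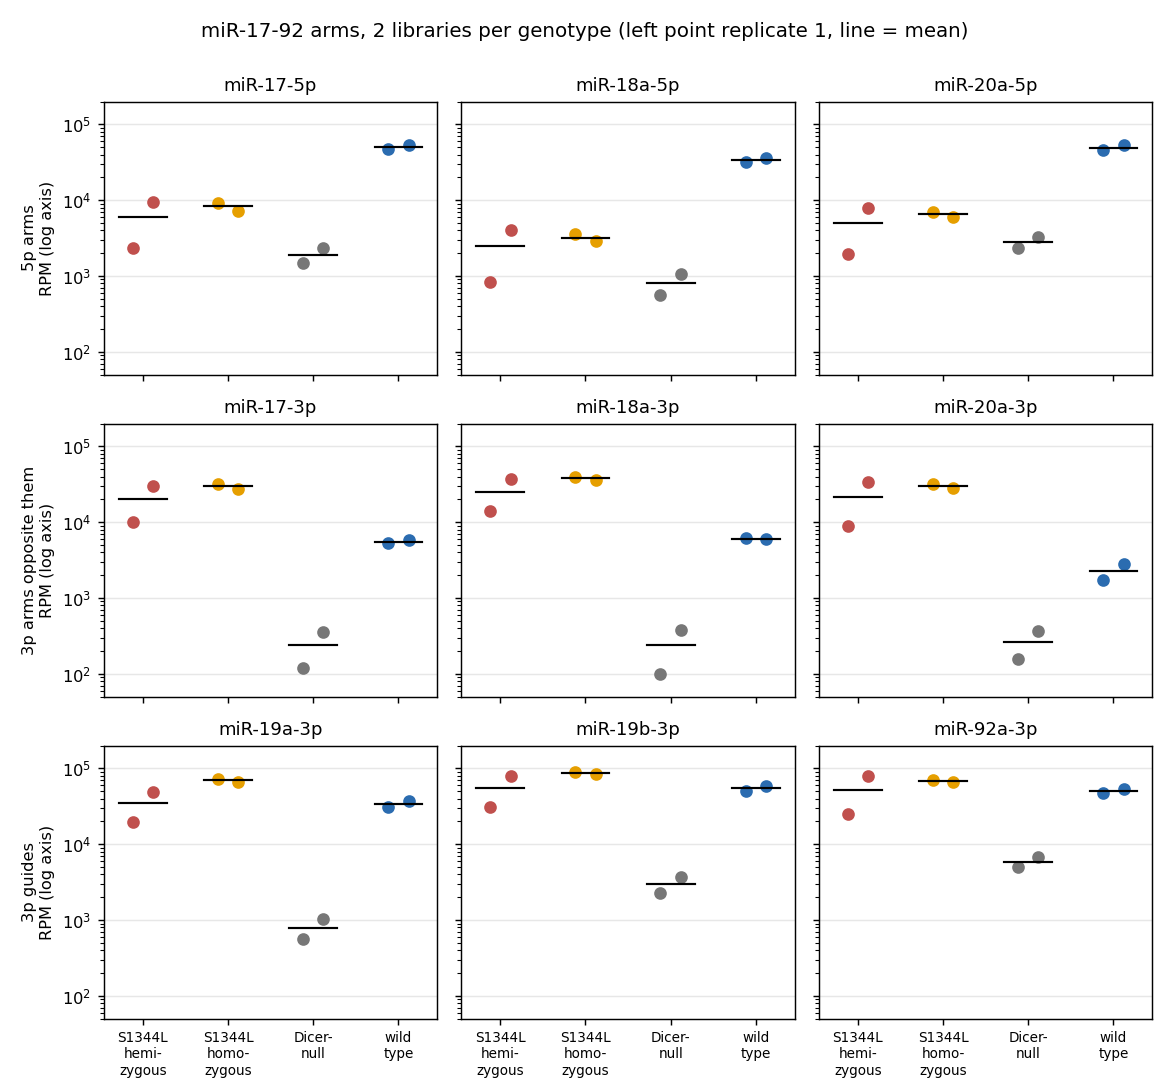
RPM (log axis) of each of the 9 arms in the 2 libraries of each genotype, with replicate 1 as the left point and a line at the mean; rows hold the 5p guides, the 3p arms opposite them, and the 3p guides. The 5p guides are lower in S1344L than in wild-type libraries (miR-18a-5p at 826 to 4086 RPM against 31624 and 35638), the 3p arms of the same hairpins are higher, and all 9 arms are lower in null libraries.

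The 3p arms of the same 3 hairpins, passengers in wild-type cells, were higher in every S1344L library than in either wild-type library. miR-20a-3p had 8991 and 33573 RPM in hemizygous cells, 31577 and 28576 in homozygous cells, 155 and 367 in null cells, and 1702 and 2787 in wild-type cells. The null libraries were the lowest, and neither S1344L group overlapped the wild type. It rose 7.97-fold in hemizygous cells (log2 3.0 ± 0.83, limma adjusted p = 0.00179) and 13.8-fold in homozygous cells (log2 3.79 ± 0.83, adjusted p = 0.000112). These were the 8th and the 7th highest log2 fold changes of the 594 miRNAs in the hemizygous and homozygous comparisons.

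miR-18a-3p had 14112 and 36662 RPM in hemizygous cells, 39803 and 35831 in homozygous cells, 99.3 and 377 in null cells, and 6104 and 5949.7 in wild-type cells. The 4 genotypes did not overlap, apart from the 2 S1344L groups. It rose by 2.65 ± 0.82 log2 units in homozygous cells (limma adjusted p = 0.00635); in hemizygous cells the difference was 1.92 ± 0.82 and missed the threshold (adjusted p = 0.0553).

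miR-17-3p had 10189.9 and 30481 RPM in hemizygous cells, 32083 and 27411 in homozygous cells, 119 and 357 in null cells, and 5258 and 5866 in wild-type cells. As with miR-18a-3p, only the 2 S1344L groups overlapped. It rose 5.34-fold in homozygous cells (limma adjusted p = 0.0137), and the hemizygous difference of 1.67 ± 0.82 log2 units did not pass (adjusted p = 0.107). By mean RPM the 3 arms ranked between 10th and 14th in hemizygous cells and between 11th and 16th in homozygous cells, against 67th to 139th in wild-type cells.

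The 3p guides did not pass the test against wild type in either S1344L genotype on the deposited scale when all 8 libraries were fitted. With only the compared libraries fitted, all 9 arms passed in homozygous cells, 6 higher and 3 lower, with the 3p guides among the higher. The same kind of fit in hemizygous cells called 3 arms, all lower. miR-19a-3p, a guide with the seed GUGCAAA, had 19518 and 49626 RPM in hemizygous cells, 72088 and 66669 in homozygous cells, 554 and 1037 in null cells, and 31284 and 37311 in wild-type cells. The homozygous libraries were above, and the hemizygous libraries on either side of, the wild-type ones. The log2 difference from wild type was −0.13 in hemizygous cells (95% interval −1.66 to 1.39, limma adjusted p = 0.925) and 1.02 in homozygous cells (−0.50 to 2.55, adjusted p = 0.365).

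miR-19b-3p, of the same seed, had 31372 and 80458 RPM in hemizygous cells, 90118 and 84618 in homozygous cells, 2261 and 3739.9 in null cells, and 50329.8 and 58434 in wild-type cells. miR-92a-3p, whose seed is AUUGCAC, had 25199 and 78375 RPM in hemizygous cells, 70975 and 66136 in homozygous cells, 4978 and 6701 in null cells, and 46885 and 53281 in wild-type cells. In both arms the homozygous libraries lay above the wild-type ones and the hemizygous libraries spanned them. Neither passed when all 8 libraries were fitted. For miR-19b-3p the limma adjusted p was 0.939 in hemizygous and 0.578 in homozygous cells, and for miR-92a-3p it was 0.907 and 0.732.

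In hemizygous cells, 1 of the 9 arms rose and 3 fell, where 4.04% of all 594 miRNAs rose and 30.5% fell. In homozygous cells, 3 of 9 rose and 3 fell, against 9.93% and 22.1% of all miRNAs. The median log2 fold change of the 9 arms was −0.13 in hemizygous and 0.69 in homozygous cells, beside −0.92 and −0.05 over all miRNAs. The calls depend on the scaling, because the deposited denominators are not the miRNA totals: scaled to the miRNA reads of each library, all 9 arms passed in both genotypes, 6 higher and 3 lower. There 16.8% of the 594 miRNAs were higher and 32.8% lower in hemizygous cells, and 18.2% and 31.8% in homozygous cells. On that scale miR-19a-3p, miR-19b-3p and miR-92a-3p were higher by 0.60, 0.62 and 0.56 log2 units in hemizygous cells and by 0.96, 0.63 and 0.39 in homozygous cells, while the median of all miRNAs stood at −0.24 and −0.10. In hemizygous cells the call of miR-20a-3p was lost without wild-type replicate 1 (3 arms called, all lower) and when only the libraries compared were fitted (adjusted p = 0.0737). Without hemizygous replicate 1 all 3 passengers passed as higher in hemizygous cells. Without homozygous replicate 2 or wild-type replicate 2, only 1 of 9 arms passed in homozygous cells, and without homozygous replicate 1 or wild-type replicate 1 only 2 did.

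**Figure D2:**
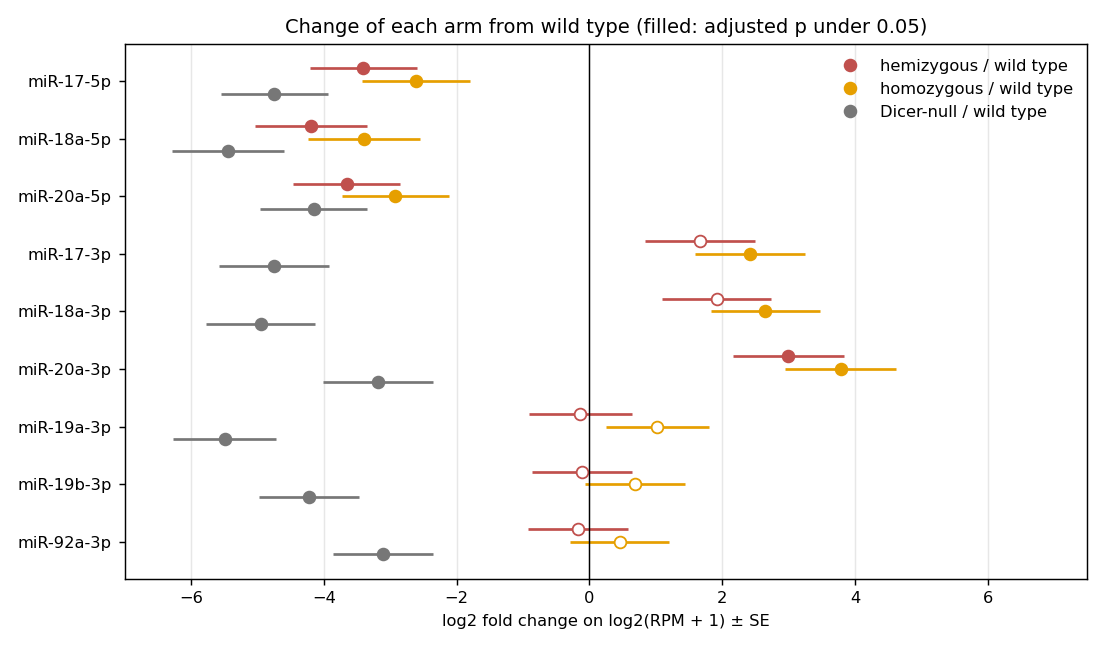
Log2 fold change from wild type on log2(RPM + 1) of each of the 9 arms, with its standard error as the bar; filled points have a limma adjusted p under 0.05. In the hemizygous and homozygous comparisons the 5p guides lie between −4.19 and −2.61, the 3p arms opposite them between 1.67 and 3.79 and the 3p guides between −0.17 and 1.02, and in the null comparison all 9 lie between −5.49 and −3.11.

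The balance of the 2 arms of a hairpin does not depend on the scaling of a library, apart from the 1 RPM added to each arm, and it turned over in all 3 hairpins with a 5p guide. In the miR-20a hairpin there were 4.64 and 4.24 reads of the 3p arm for each read of the 5p arm in hemizygous libraries, and 4.46 and 4.81 in homozygous libraries. In wild-type libraries the order was the reverse, with 27.1 and 18.9 reads of the 5p arm for each of the 3p arm. For miR-17 the 3p arm was 4.37 and 3.18 times the 5p arm in hemizygous libraries and 3.48 and 3.76 times in homozygous libraries, and in wild-type libraries the 5p arm was 8.90 and 9.15 times the 3p arm.

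For miR-18a the 3p arm was 17.1 and 8.97 times the 5p arm in hemizygous libraries and 11.3 and 12.5 times in homozygous libraries, and the 5p arm was 5.18 and 5.99 times the 3p arm in wild-type libraries. In all 3 hairpins the major arm was thus 3p in each of the 4 S1344L libraries and 5p in both wild-type libraries. Hemizygous replicate 1, low in level, had ratios above those of hemizygous replicate 2 in each of the 3.

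The log2 3p/5p ratio of miR-17 was higher than in wild type by 5.07 ± 0.47 in hemizygous and 5.03 ± 0.47 in homozygous cells (limma over 186 hairpins with both arms measured, adjusted p = 7.12e-07 and 6.89e-07). That of miR-18a was higher by 6.11 ± 0.46 and 6.04 ± 0.46 (adjusted p = 1.21e-07 and 9.86e-08). That of miR-20a was higher by 6.65 ± 0.47 and 6.71 ± 0.47 (adjusted p = 9.74e-08 and 6.97e-08). All 3 hairpins passed in both genotypes, as did 76.9% of the 186 hairpins toward 3p in hemizygous and 79.0% in homozygous cells, so a shift toward 3p was not particular to the polycistron. The median shift of all 186 was 2.89 and 3.31, and in the order of shifts the miR-20a hairpin was 12th and 14th, miR-18a 16th and 20th and miR-17 32nd and 39th in the hemizygous and homozygous comparisons.

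The miR-19a hairpin, with a 3p guide, allows the same measure. Its 5p passenger, miR-19a-5p, had 20.4 and 59.5 RPM in hemizygous cells, 107 and 50.5 in homozygous cells, 9.29 and 20.0 in null cells, and 279.6 and 508 in wild-type cells. Every library with altered Dicer was below both wild-type libraries. The log2 3p/5p ratio was 9.83 and 9.68 in hemizygous, 9.38 and 10.34 in homozygous, 5.75 and 5.63 in null and 6.80 and 6.20 in wild-type libraries. It was higher than in wild type by 3.26 ± 0.87 in hemizygous (limma adjusted p = 0.00398) and by 3.36 ± 0.87 in homozygous cells (adjusted p = 0.003), so a hairpin with a 3p guide also moved toward 3p, 82nd and 90th in the order of 186.

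**Figure D3:**
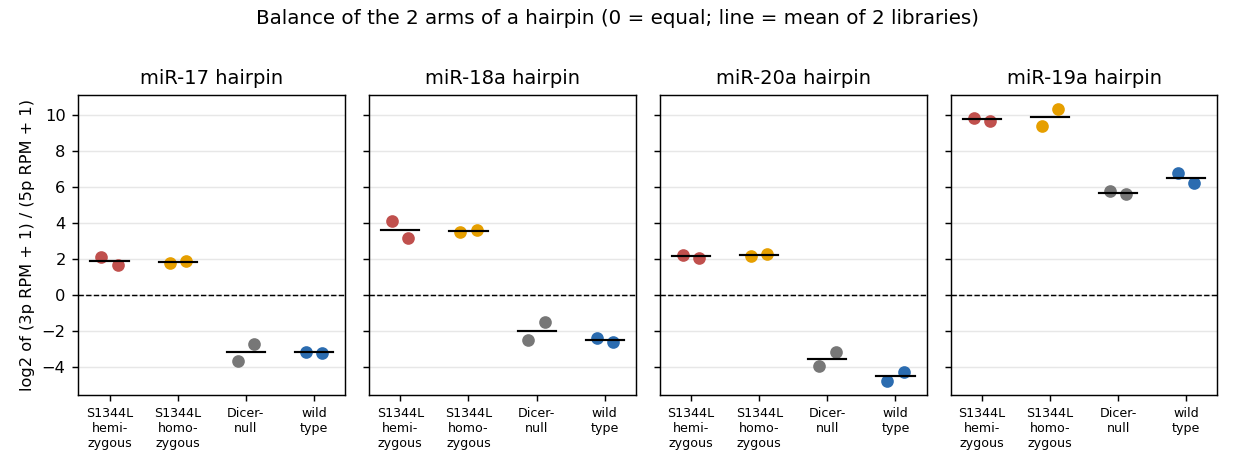
Log2 of (3p RPM + 1) over (5p RPM + 1) in each library for the 4 hairpins of the polycistron with both arms paired by name; the dashed line marks equal arms and the short lines the means. The miR-17, miR-18a and miR-20a hairpins lie between 1.67 and 4.09 in S1344L libraries and between −4.76 and −1.50 in null and wild-type libraries; the miR-19a hairpin is above 0 in all 8 libraries.

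The 5p passengers of the last 2 hairpins did not pass the test in S1344L cells. miR-19b-1-5p had 172 and 1254 RPM in hemizygous, 907 and 1075 in homozygous, 105 and 202 in null and 1125 and 1468 in wild-type cells, and neither S1344L difference passed (−1.46, limma adjusted p = 0.23; −0.38, adjusted p = 0.819). miR-92a-1-5p had 27.7 and 233 RPM in hemizygous, 79.4 and 54.1 in homozygous, 171 and 302 in null and 103 and 417 in wild-type cells. Its groups overlapped, apart from the homozygous libraries, which lay below the null and the wild-type ones. No limma test of it against wild type passed (adjusted p = 0.326, 0.219 and 0.898 in hemizygous, homozygous and null cells).

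Summing the 2 arms gives the output of a hairpin. The miR-18a hairpin gave 14939 and 40747 RPM in hemizygous, 43336 and 38706 in homozygous, 657 and 1447 in null and 37728 and 41588 in wild-type cells. The homozygous and wild-type libraries overlapped, and hemizygous replicate 2 lay among them. The log2 difference from wild type was −0.68 in hemizygous cells (95% interval −2.24 to 0.87) and 0.05 in homozygous cells (−1.51 to 1.61), with limma adjusted p of 0.584 and 0.983.

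The miR-17 hairpin gave 12522 and 40071 RPM in hemizygous, 41313 and 34696 in homozygous, 1613 and 2686 in null and 52049.9 and 59553 in wild-type cells. The miR-20a hairpin gave 10929.6 and 41490.2 RPM in hemizygous, 38662 and 34517 in homozygous, 2502 and 3644 in null and 47789 and 55533 in wild-type cells. In both, each S1344L library lay below both wild-type libraries. The log2 differences were −1.31 and −1.27 in hemizygous cells (limma adjusted p = 0.206 and 0.216) and −0.56 and −0.50 in homozygous cells (adjusted p = 0.8 for both).

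None of the 3 hairpins with a 5p guide thus passed in output, in comparisons where 28.5% of the 186 hairpins passed in hemizygous and 10.2% in homozygous cells. Scaled to the miRNA reads of each library, the outputs of miR-17 and miR-20a did pass in both genotypes, at −0.58 and −0.54 in hemizygous and −0.62 and −0.56 in homozygous cells, where 45.2% and 40.3% of the 186 hairpins passed as lower. The direction turned with the scaling. With upper-quartile scaling all 3 outputs passed as higher in hemizygous cells (0.52 for miR-17, 1.15 for miR-18a and 0.55 for miR-20a), and miR-18a passed as higher in homozygous cells (0.95). Without hemizygous replicate 2, on the deposited scale, all 3 passed as lower in hemizygous cells, as did 83.3% of the 186. On the deposited scale and on the scale of miRNA reads, the shifts in arm balance, 5.03 to 6.71 log2 units, were larger than the differences in output.

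Within the reads of the 9 arms, the 3 arms of 5p guides made up 5.49% ± 1.47 (SD, n = 2) in hemizygous, 5.26% ± 0.44 in homozygous, 34.8% ± 0.24 in null and 46.6% ± 0.23 in wild-type cells. The 3p arms opposite them made up 29.8% ± 0.97 in hemizygous, 28.6% ± 0.57 in homozygous, 4.34% ± 1.94 in null and 4.84% ± 0.09 in wild-type cells. The 3p guides made up 64.7% ± 2.43, 66.1% ± 1.00, 60.8% ± 1.70 and 48.5% ± 0.32 in the same order. The reads of the 9 arms were thus mostly of 3p arms in all 4 genotypes, and the most so in S1344L cells. In null and wild-type cells this majority rested on miR-19b-3p and miR-92a-3p, whose sequences also arise on chromosome X. The remaining 3p guide, miR-19a-3p, held 4.90% in null and 11.98% in wild-type cells. Together with the 3p arms opposite the 5p guides, it stayed below those guides in both genotypes and above them in S1344L cells. The 5p share minus that of wild type was −41.1 points in hemizygous and −41.4 points in homozygous cells, with no overlap of libraries. An exact two-sided permutation test of 2 against 2 cannot go below p = 0.333, which both gave. Leaving out miR-19b-3p and miR-92a-3p, the differences were −62.8 points in hemizygous and −63.8 points in homozygous cells.

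**Figure D4:**
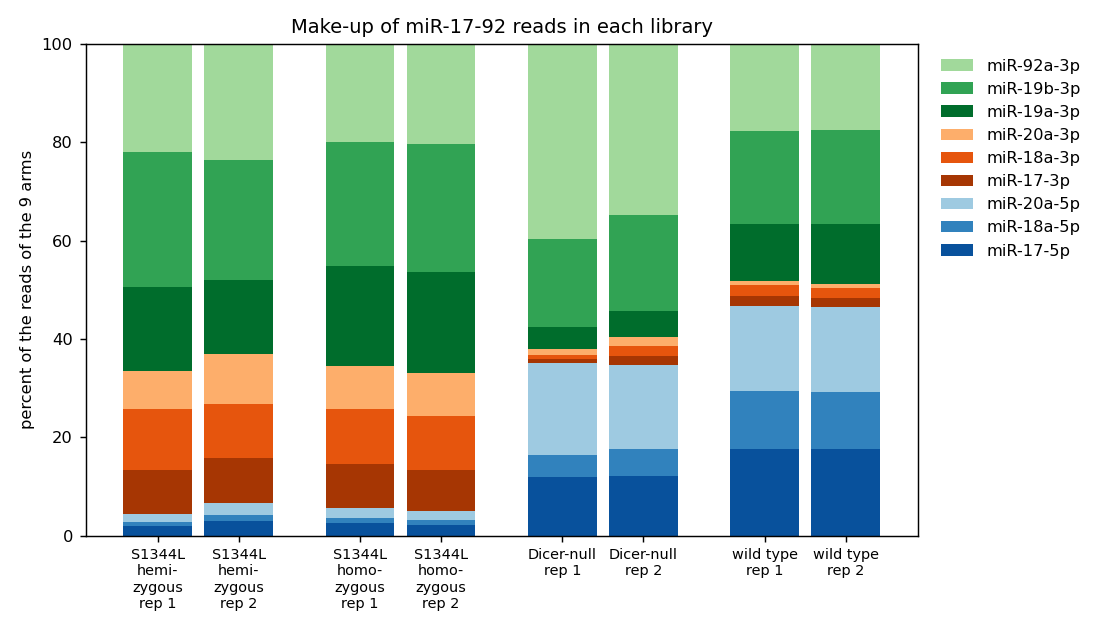
Percent of the reads of the 9 arms taken by each arm in each of the 8 libraries; blue marks the 5p guides, orange the 3p arms opposite them and green the 3p guides. The 5p guides average 5.49% in hemizygous, 5.26% in homozygous, 34.8% in null and 46.6% in wild-type libraries, and miR-92a-3p takes 37.2% in null against 17.5% in wild-type libraries.

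The polycistron carries guides with the AAAGUGC seed on 5p arms and guides with the GUGCAAA seed on 3p arms, and the balance of these 2 pairs of guides differed between genotypes. miR-19a-3p and miR-19b-3p together held 11.9 and 7.43 times the RPM of miR-17-5p and miR-20a-5p in hemizygous libraries and 9.94 and 11.4 times in homozygous libraries. In null libraries they held 0.733 and 0.852 times, and in wild-type libraries 0.879 and 0.900 times. The S1344L libraries were about an order of magnitude above the other 4, which lay close to parity. miR-19b-3p, whose sequence also arises on chromosome X, held 61.7% of the miR-19 pair in hemizygous and 55.7% in homozygous cells. It held 79.3% in null and 61.3% in wild-type cells, so the parity is not shown for the polycistron alone.

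In Dicer-null cells all 9 arms fell, in a comparison where 87.4% of the 594 miRNAs fell. The log2 fold changes ran from −5.49 for miR-19a-3p to −3.11 for miR-92a-3p, with a median of −4.75, beside −4.60 over all miRNAs. miR-19a-3p fell 45.0-fold (limma adjusted p = 4.38e-11), miR-19b-3p 18.6-fold (adjusted p = 7.33e-08) and miR-92a-3p 8.65-fold (adjusted p = 5.48e-05). Of the arms with the same seed, miR-17-5p fell 26.8-fold and miR-20a-5p 17.8-fold. Relative to the miRNA reads of each library, where the median of all miRNAs was −1.16, 5 of 9 arms passed as lower, and miR-20a-3p and miR-92a-3p as higher, at 0.72 and 0.79. On that scale 48.7% of the 594 were lower and 11.8% higher.

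No shift in arm balance passed the test in null cells. The log2 3p/5p ratio of miR-17 was −3.64 and −2.70 in null libraries and −3.15 and −3.19 in wild-type libraries, a difference of −0.00 (95% interval −1.02 to 1.02). The differences for miR-18a and miR-20a were 0.49 (−0.51 to 1.48) and 0.97 (−0.05 to 1.99). None of the 3 passed (limma adjusted p = 0.999, 0.422 and 0.111), where 37.6% of the 186 hairpins passed in either direction. Without null replicate 1, 1 of the 3, miR-20a, passed at 1.35.

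The output of all 3 hairpins with a 5p guide fell in null cells, with 97.8% of the 186, by 4.74 log2 units for miR-17, 5.34 for miR-18a and 4.09 for miR-20a (limma adjusted p = 5.99e-09, 1.74e-10 and 3.09e-07). With upper-quartile scaling 1 of the 3 passed, miR-20a, and as higher (0.91). The reads that remained were 2092 and 1750 of miR-17-5p but only 139 and 283 of miR-18a-3p per library. miR-92a-3p was the most abundant remaining arm, at 37.2% ± 3.41 of the reads of the 9 arms (SD, n = 2), against 17.5% ± 0.14 in wild-type cells. The 5p share minus that of wild type was −11.8 points; leaving out miR-19b-3p and miR-92a-3p, whose sequences also arise on chromosome X, it was 5.69 points.

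No arm passed the test between the S1344L genotypes. The log2 difference, hemizygous over homozygous, was −1.16 to −0.62 in the 9 arms, and none passed, as 0.0% of the 594 did (limma adjusted p = 0.66 for each of the 9); at an unadjusted p under 0.05 it was 0 of the 9 arms and 7 of the 594. The 95% intervals were wide, for miR-17-5p −2.37 to 0.79, and the count turned on the hemizygous libraries: without hemizygous replicate 2, which leaves the low library alone, 8 of 9 arms passed as lower, where 70.0% of the 594 passed in either direction. Without hemizygous replicate 1 none of the 9 did. In the 3p/5p ratios the hemizygous minus homozygous difference was 0.04 for miR-17 (−0.98 to 1.06), 0.06 for miR-18a (−0.93 to 1.06) and −0.06 for miR-20a (−1.08 to 0.96). None of the 3 passed, and 0.0% of the 186 hairpins did.

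Set against null cells on the deposited scale, all 6 of the 3p arms were higher in both S1344L genotypes. In hemizygous cells 6 of 9 arms were higher, where 64.6% of the 594 were, and these 6 were the 3p arms. The 3 passengers were higher by 6.18 to 6.87 log2 units and the 3 guides by 2.94 to 5.36, with a median of all miRNAs of 3.09. The 5p guides did not pass: miR-17-5p differed by 1.34 (95% interval −0.24 to 2.92, limma adjusted p = 0.133), miR-18a-5p by 1.25 (−0.40 to 2.90, adjusted p = 0.181) and miR-20a-5p by 0.50 (−1.08 to 2.08, adjusted p = 0.588). Without hemizygous replicate 1 all 9 passed.

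In homozygous cells 8 of 9 arms were higher than in null cells, where 76.3% of the 594 were. miR-17-5p was higher by 2.14 ± 0.81 (limma adjusted p = 0.0112) and miR-18a-5p by 2.04 ± 0.84 (adjusted p = 0.0201), while miR-20a-5p differed by 1.23 ± 0.81 (adjusted p = 0.15). Leaving out homozygous replicate 1, or replicate 2, gave 6 of 9. On the deposited scale miR-18a-3p was 194-fold higher, the 16th highest of the 594. All 3 arm ratios were higher than in null cells in both genotypes, by 5.07, 5.62 and 5.68 in hemizygous and 5.03, 5.56 and 5.74 in homozygous cells for miR-17, miR-18a and miR-20a, where 78.5% and 79.6% of the 186 hairpins passed toward 3p. These comparisons share the S1344L libraries with those against wild type.

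The direction of the 5p guides against null cells turned with the scaling. Relative to the miRNA reads of each library, miR-17-5p, miR-18a-5p and miR-20a-5p were lower than in null cells, at −1.83, −1.92 and −2.68 log2 units in hemizygous and −1.83, −1.92 and −2.74 in homozygous cells. The 3p arms other than miR-92a-3p stayed higher, by 0.94 for miR-19b-3p in both genotypes and by 2.18 to 3.70 for the other 4. miR-92a-3p was at −0.23 in hemizygous cells (limma adjusted p = 0.123) and passed as lower in homozygous cells at −0.40 (adjusted p = 0.0192). So 5 arms were higher and 3 lower in hemizygous cells, where 35.7% of the 594 were higher and 30.5% lower, and 5 and 4 in homozygous cells, where 39.2% and 29.5% were. The median of all miRNAs was 0.42 and 0.61 on this scale.

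Because other miRNAs carry the same seeds, the reads of each seed were summed over the 533 of 594 miRNAs matched to a RefSeq mature sequence, which gave 422 seeds, 7 of them seeds of members. The AAAGUGC seed is carried by 8 measured miRNAs: miR-17-5p, miR-20a-5p, miR-93-5p, miR-106a-5p, miR-106b-5p, miR-20b-5p and the chromosome 19 cluster arms miR-519d-3p and miR-526b-3p. Its sum was 8026 and 35518 RPM in hemizygous, 32867 and 28078 in homozygous, 5228 and 7943 in null and 157086 and 188777 in wild-type cells. The fall was 10.2-fold in hemizygous cells (limma adjusted p = 0.00018) and 5.67-fold in homozygous cells (adjusted p = 0.00779).

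The 2 carriers on 3p arms took a larger share of this seed in S1344L libraries, with no overlap with the null or wild-type ones. miR-519d-3p and miR-526b-3p together made up 27.0% and 26.5% of the AAAGUGC sum in hemizygous libraries, 27.0% and 30.6% in homozygous libraries, 4.62% and 5.40% in null libraries and 6.14% and 6.41% in wild-type libraries. miR-519d-3p itself differed from wild type by −0.86 log2 units in hemizygous and 0.14 in homozygous cells (limma adjusted p = 0.508 and 0.938), and miR-526b-3p by −1.92 and −1.08 (adjusted p = 0.0772 and 0.415). Neither 3p carrier passed the test against wild type in either S1344L genotype, while miR-17-5p and miR-20a-5p passed as lower in both. Whether the changes of the 3p and 5p carriers differ was not tested. In null cells miR-519d-3p averaged 174 RPM and miR-526b-3p 161, against 5826 and 5050 in wild-type cells.

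The AAGGUGC seed, of miR-18a-5p and miR-18b-5p, fell by 4.22 log2 units in hemizygous and 3.39 in homozygous cells, with 87.6% to 89.8% of its S1344L reads from miR-18a-5p. The GUGCAAA seed, of miR-19a-3p and miR-19b-3p alone, differed by −0.12 and 0.83 (limma adjusted p = 0.927 and 0.485). The AUUGCAC seed is shared by miR-92a-3p with miR-25-3p, miR-32-5p, miR-92b-3p, miR-363-3p and miR-367-3p, and differed by −0.43 and 0.37 (adjusted p = 0.725 and 0.776). miR-367-3p, a pluripotency miRNA, held 62.0% to 65.4% of that sum in the 4 genotypes and miR-92a-3p 19.8% to 28.5%.

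Among the 533 matched miRNAs no other carried the seeds of miR-17-3p, miR-18a-3p or miR-20a-3p, so the sum of each seed is the level of 1 arm: CUGCAUU was 13.8-fold, CUGCCCU 6.27-fold and CUGCAGU 5.34-fold higher in homozygous cells. In hemizygous cells 1 of the 7 seeds rose and 2 fell, against 3.79% and 27.3% of 422, and without hemizygous replicate 1 it was 5 in all. In homozygous cells 3 rose and 2 fell, against 10.4% and 19.7%. Leaving out 1 library gave 2 calls (without homozygous replicate 1), 1 (without homozygous replicate 2 or wild-type replicate 2) or 0 (without wild-type replicate 1). In null cells all 7 fell, where 87.0% of seeds did.

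**Figure D5:**
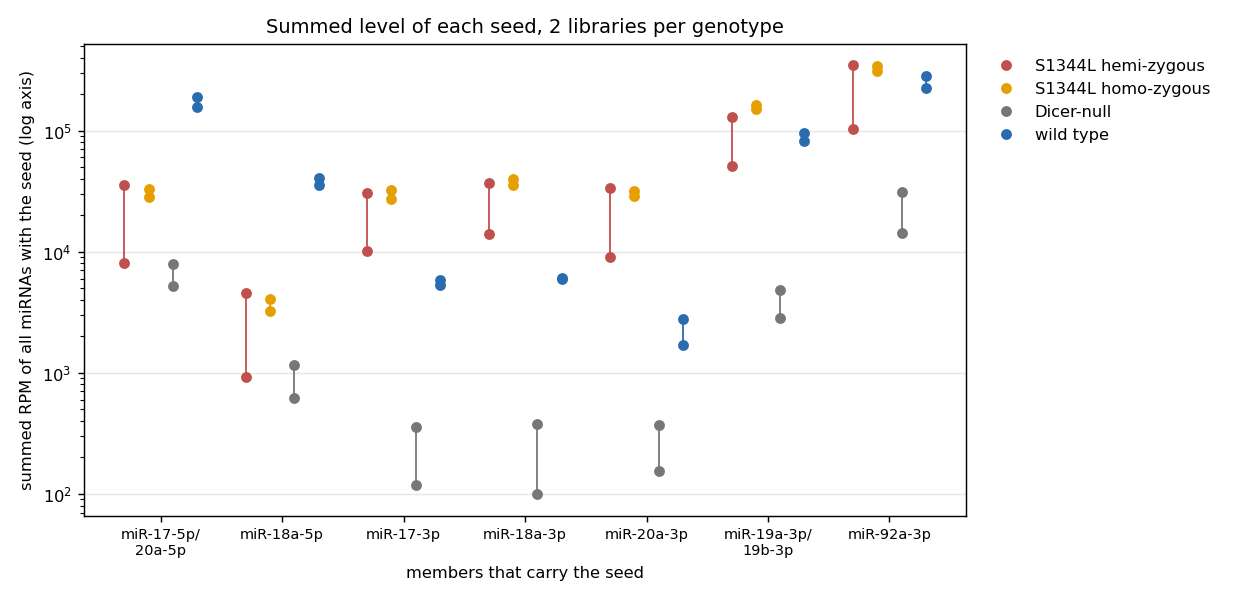
Summed RPM (log axis) of all measured miRNAs with the seed of each member, 2 joined points per genotype. The seed of miR-17-5p and miR-20a-5p lies at 8026 to 35518 RPM in S1344L libraries and 157086 and 188777 in wild-type libraries, while the seeds of the 3p arms opposite the 5p guides are higher in S1344L than in wild-type libraries.

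The polycistron has paralogs on chromosome X (miR-106a-363) and chromosome 7 (miR-106b-25), of which 15 of 16 listed arms were measured. In hemizygous cells 1 rose and 7 fell and in homozygous cells 3 rose and 5 fell, every fall in a 5p and every rise in a 3p arm. Of all 594 miRNAs, 4.04% rose and 30.5% fell in hemizygous cells and 9.93% rose and 22.1% fell in homozygous cells. The medians were −1.72 and −1.45, against −0.92 and −0.05 over all miRNAs. miR-106b-5p, with the seed of miR-17-5p, fell, with log2 fold changes of −4.71 ± 0.87 in hemizygous and −3.75 ± 0.87 in homozygous cells (limma adjusted p = 2.11e-06 and 0.00027), and so did miR-20b-5p, at −4.23 ± 0.88 and −3.61 ± 0.88 (adjusted p = 2.57e-05 and 0.000511). miR-20b-3p, opposite it, rose by 3.42 ± 0.91 in homozygous cells (adjusted p = 0.00149). In null cells 14 of the 15 fell, beside 87.4% of the 594, with miR-363-3p at −7.50. Several paralog arms are near copies of members, and how reads that fit more than 1 name were counted is not stated in the labels.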

How the data were processed

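Per the file headers, each library has 1 column of the deposited table, which holds log2 values. The low values of each library step as whole reads plus 0.5 over a single denominator do, so reads and RPM were computed back from the log2 values the authors deposited. No recovered count lay more than 7.31e-09 from a whole number. The tests had been planned for RPM. No source used here gives the origin of the denominators. The submitters' processing notes name cutadapt, limma and hg38. One read corresponds to 0.715 to 1.33 RPM.

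RPM were tested as log2(RPM + 1) with limma 3.58.1 in R 4.3.3: group means over all 8 libraries, moderated variances with a trend, two-sided, Benjamini-Hochberg adjusted over all 594 miRNAs, 186 hairpins or 422 seeds, threshold 0.05. Fold changes on this scale understate those of low miRNAs. All 594 miRNAs and all 9 arms passed a filter of 5 RPM in 2 libraries. Arms were paired by name. The p-values rest on the spread between the 2 libraries of a genotype, pooled over the 4 genotypes and moderated toward a trend shared by all features. For hairpin outputs and seeds the prior degrees of freedom were infinite, so that trend replaced each feature's own spread. The 5p share was compared with an exact permutation test. The scripts were tested on simulated data.

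The members and lists were chosen with earlier results of these data known. Named miRNAs are the members, other arms of their hairpins, miRNAs with a member's seed, and up to 4 paralogs per comparison by largest change. Alternatives were other pseudocounts, filters and scalings, voom weights, a replicate block, fits of the compared libraries alone, leaving out each library, and leaving out miR-19b-3p and miR-92a-3p. The main tests did not pair libraries by replicate number, and whether that number marks a shared preparation is not stated in the labels.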

Additional observations from a re-analysis of the deposited data

How the results depend on the processing

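The 3p/5p shifts of miR-17, miR-18a and miR-20a passed in both S1344L genotypes, against wild type and against null, under all 14 alternatives each; that of miR-19a in homozygous cells passed in 13. Counts of arms called moved more. With only the compared libraries fitted, homozygous cells had 9 of 9 arms called against wild type (6 higher, 3 lower). Against wild type, hemizygous cells had 9 of 9 arms called (6 higher, 3 lower) under own-read, median-ratio and upper-quartile scaling (3 to 6 when 1 library was left out), and homozygous cells 1 to 7 when 1 library was left out; null cells had 4 under median-ratio scaling (2 higher, 2 lower) and 4 under upper-quartile scaling (all higher). When 1 library was left out, hemizygous against homozygous gave 0 to 8, hemizygous against null 6 to 9 and homozygous against null 6 to 9. The 3 scalings each gave 5 higher and 3 lower against null, except own-read scaling in homozygous cells, 5 and 4. Null ratios called were 1 of 3 at a pseudocount of 5 RPM, and 0 to 1 when 1 library was left out. Hairpin outputs called in hemizygous cells were 2 (lower), 1 (higher) and 3 (higher) under the 3 scalings and 0 to 3 (lower) when 1 library was left out; in homozygous cells 2 with own-read scaling (lower), 1 with upper-quartile scaling (higher) and 2 with only the compared libraries (lower); in null cells 1 under median-ratio (lower) and 1 under upper-quartile scaling (higher). Seeds called in hemizygous cells were 6, 7 and 7 under the 3 scalings and 2 to 5 when 1 library was left out, in homozygous cells 0 to 6 when 1 library was left out, and in null cells 3 under median-ratio and 3 under upper-quartile scaling (2 higher, 1 lower in each). The 5p share of null minus wild type was 5.69 points without miR-19b-3p and miR-92a-3p, and hemizygous minus homozygous was −0.81 to 1.27 points when 1 library was left out.

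Some arms changed sign. In hemizygous cells, own-read, median-ratio and upper-quartile scaling and leaving out hemizygous replicate 1 gave 0.60, 1.18, 1.69 and 0.54 for miR-19a-3p, 0.62, 1.21, 1.72 and 0.57 for miR-19b-3p, and 0.56, 1.15, 1.66 and 0.65 for miR-92a-3p. When 1 library was left out these 3 arms ranged from −0.81 to 0.54, from −0.79 to 0.57 and from −0.99 to 0.65. In null cells, upper-quartile scaling gave 0.26 for miR-17-5p, 0.25 for miR-17-3p and 0.043 for miR-18a-3p; median-ratio and upper-quartile scaling gave 0.30 and 0.78 for miR-19b-3p and 0.37 and 0.85 for miR-20a-5p; and the 3 scalings gave 0.72, 1.33 and 1.81 for miR-20a-3p and 0.79, 1.40 and 1.89 for miR-92a-3p. These scalings moved the median of all miRNAs from wild type to between −1.16 and 0.83. The cause of these changes was not tested.

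A replicate block gave 5 arms in hemizygous cells against wild type, with miR-18a-3p added, 4 seeds in that comparison, and no other change in these counts; deviations of same-numbered libraries correlated at 0.61 for hemizygous and wild type and at −0.10 to 0.10 for the other pairs of genotypes. With 2 libraries per genotype and 1 spread pooled over the 4 genotypes, the standard error of an arm's fold change was at least 0.75 log2 units. For the miR-17 hairpin output against wild type, the pooled standard error was 0.79 in both S1344L genotypes. With only the compared libraries it was 0.17 in homozygous and 1.17 in hemizygous cells. Where 1 library is left out, the lone one is assumed to vary like the other genotypes.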

Other observations

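The miRNAs whose levels over the 8 libraries ran most like those of 3 members were listed by the root mean square distance between centred log2(RPM + 1) profiles, among 264 candidates with a mean of at least 500 RPM in 1 genotype. These are descriptions, since the libraries share genotype and depth. For miR-17-5p they were miR-106a-5p (0.10 log2 units), miR-30a-5p (0.23) and miR-515-5p (0.30), all 5p arms. The sequence of miR-106a-5p differs from that of miR-17-5p only at the first base. How reads that fit both names were counted is not stated in the labels. For miR-20a-3p they were miR-30d-3p (0.27), miR-498-3p (0.35) and miR-16-2-3p (0.37), all 3p arms. For miR-92a-3p they were the pluripotency guides miR-302b-3p (0.16) and miR-302a-3p (0.17), and miR-135a-5p (0.27), a 5p arm. miR-135a-5p averaged 15735 RPM in hemizygous, 23752 in homozygous, 1249.7 in null and 15484 in wild-type cells.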
